A study of Mus musculus with 4 samples.

Results

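Calmodulin kinase and neuronal calcium sensor genes were examined in the RNA of cortical astrocytes with and without Ezh2. The group holds 10 of the 29224 genes in the deposited tables. These are the 4 genes for subunits of calcium/calmodulin-dependent protein kinase II (CaMKII), Camk2a, Camk2b, Camk2d and Camk2g, the related genes Camk4 and Camkv, the neurogranin gene Nrgn, and the neuronal calcium sensor genes Hpca, Hpcal4 and Ncald. They were matched by gene name, and each name had 1 entry in the table. The genes were chosen from values of the same comparison between Ezh2 cKO and Ezh2 f/f that is given here, so their differences are described without a test.

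Astrocytes were taken from the cortex of P5 mice with magnetic beads that bind GLAST, the glial glutamate transporter that Slc1a3 encodes. There were 2 libraries from Ezh2 f/f mice, whose Ezh2 alleles carry loxP sites, and 2 from Ezh2 cKO mice, in which the same alleles were combined with Aldh1l1-icre, a Cre recombinase driven from the promoter of an astrocyte gene. The floxed alleles were thus shared by both groups, called controls and cKO below, and only cKO carried Cre. The study's methods give the genotype Ezh2 f/f for the controls, whose deposited columns are labelled WT. The study worked with C57BL/6J and ICR mice, and the strain, sex and number of the animals behind each library are not given in the sources used here. The 2 libraries of a group were treated as replicates, so the spread between them may be partly technical. Total counts lay between 16273308 and 17522152 reads per library, and 3 counts, the limit that a count of 0 allows, corresponded to between 0.171 and 0.184 CPM, the unit of counts scaled to the library total. This limit covers counting error only.

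When calcium enters a cell it binds calmodulin, and calcium-loaded calmodulin switches on the CaMK enzymes. CaMKII is a large holoenzyme built from alpha, beta, gamma and delta subunits, each from its own gene. The alpha and beta subunits are the main forms in forebrain neurons, where the kinase is concentrated at synapses and is needed for long-term potentiation, whereas the gamma and delta subunits are found in many tissues. Neuronal calcium sensors bind calcium through EF hands without calmodulin, and several move to membranes when calcium rises.

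Ezh2, the targeted gene, had fewer counts in both cKO libraries (211 and 164) than in the controls (434 and 327), a log2 fold change (log2FC) of -1.11 with a standard error (SE) of 0.16. Markers of other cells moved with the group as well. With an adjusted p of 0.05 in edgeR as the threshold, 10 of 12 astrocyte markers were higher and 0 lower, and their summed level was between 648 and 705 CPM in controls and between 3049 and 3346 CPM in cKO. Of 12 pan-neuron markers, 10 were higher and 2 lower. Their summed level was between 6562 and 6892 CPM in controls and between 8176 and 8180 CPM in cKO. Tubb3, which was lower, was the largest part of that sum, with means of 3617 CPM in controls and 2208 CPM in cKO. The 10 higher ones had log2FC from 0.47 (Stmn2) to 3.00 (Thy1). Slc1a3 itself had 97.4 and 103 CPM in controls against 303 and 300 CPM in cKO. Transcripts of neurons were abundant in every library of these bead-isolated cells. Of 8 excitatory neuron markers, 1 was higher and 5 were lower, and the sum went from between 1123 and 1306 CPM to between 1925 and 2011 CPM. The higher one was Slc17a7, a vesicular glutamate transporter gene (log2FC 3.44). It held most of the cKO sum, with means of 125 CPM in controls and 1353 CPM in cKO. The other excitatory markers together were lower in cKO, Neurod2 most of all, with means of 311 and 93.0 CPM. Of 8 inhibitory interneuron markers 3 were higher and 2 lower, with sums from 629 to 693 CPM in controls and from 641 to 652 CPM in cKO. All 6 oligodendrocyte precursor, all 6 oligodendrocyte and all 6 microglia markers were higher, with folds of the summed CPM of 3.09, 10.3 and 3.47. Of 6 endothelial markers 2 were higher and 1 lower, with a fold of 1.02. Of 7 progenitor and cycling markers 1 was higher and 6 lower, with a fold of 0.494. None of the markers was at 0 in all 4 libraries, and Mobp, of oligodendrocytes, was at 0 in control replicate 1. In such bulk samples fewer cells of a type and less RNA per cell cannot be told apart, and the part of these shifts in the values below was not tested.

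Across the 10 genes, 9 were higher and 1 was lower in cKO. Levels are given as FPKM, the counts scaled to gene length and to the library total, and log2FC are those of cKO over controls fitted to the counts by edgeR. All 10 genes passed the filter on low counts. By the same threshold 9 were called higher and 1 lower, while 68.4% of the 16793 genes tested were called, 34.7% of all as higher and 33.6% of all as lower. Nothing is read from that count, since the rule used this contrast. The libraries of the 2 groups did not overlap in any of the 10 genes, as in 84.3% of all genes tested. The median log2FC was 1.66 over the 10 genes and 0.015 over all genes tested. Hpcal4, Nrgn and Camk2a lay above 3, which 2.07% of all genes tested did.

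**Figure D1:**
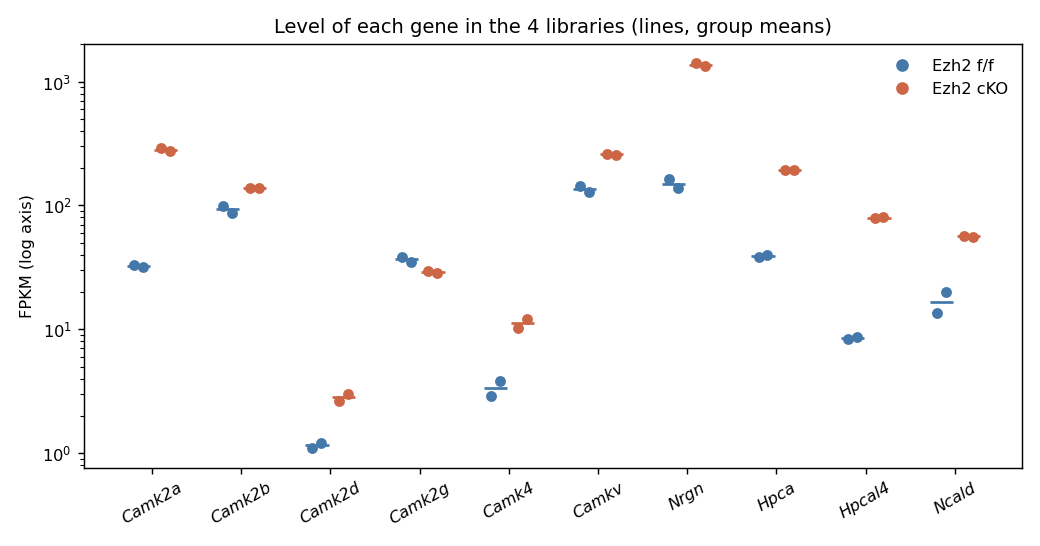
Points give the FPKM of each of the 10 genes in each library on a log axis, controls (Ezh2 f/f) in blue and cKO (Ezh2 cKO) in orange, and short lines give the means of 2 libraries. Only Camk2g lies lower in cKO, and the libraries of a group lie close together except for Ncald and Camk4 in controls.

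The CaMKII subunit genes did not move together. Camk2a, which encodes the alpha subunit, is listed on chromosome 18 from 61058690 to 61121224 (ENSMUSG00000024617). It had 33.0 and 31.9 FPKM in the controls, from 4315 and 3876 counts, and 291 and 273 FPKM in cKO, from 37672 and 33965 counts. Both cKO libraries were far above both control libraries, with at least 7.76 times the CPM, and the log2FC was 3.04 (SE 0.08). By FPKM, Camk2a was number 1774 and 1816 of all genes in the controls and number 106 and 113 in cKO.

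Camk2b, which encodes the actin-binding beta subunit, is listed on chromosome 11 from 5919644 to 6016362 (ENSMUSG00000057897). It had 99.5 and 87.4 FPKM in controls, from 15903 and 12973 counts, and 137 and 138 FPKM in cKO, from 21693 and 20987 counts. Camk2b was thus the most abundant of the 4 genes in controls, and its log2FC of 0.47 (SE 0.08) was well below that of Camk2a.

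Camk2g, which encodes the gamma subunit, is listed on chromosome 14 from 20784943 to 20844156 (ENSMUSG00000021820) and was the only one of the 10 genes that was lower in cKO. It had 38.1 and 35.2 FPKM in controls, from 4277 and 3671 counts, and 29.6 and 28.4 FPKM in cKO, from 3289 and 3034 counts. Its 250 and 234 CPM in controls lay above its 187 and 175 CPM in cKO, and the log2FC was -0.42 (SE 0.09). Camk2d, which encodes the delta subunit, is listed on chromosome 3 from 126389951 to 126639975 (ENSMUSG00000053819) and had the lowest FPKM of the 10 genes. It had 1.09 and 1.22 FPKM in controls, from 431 and 446 counts, and 2.64 and 3.01 FPKM in cKO, from 1028 and 1131 counts, log2FC 1.21 (SE 0.11). Its FPKM rests on a gene length of 22493 bases, implied by its counts and FPKM, whereas its longest transcript in GENCODE M21 has 5524 bases. For Camk2a the same lengths were 7465 and 4970 bases.

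Summed over the 4 genes, CaMKII FPKM was 172 and 156 in controls and 461 and 442 in cKO, a 2.76-fold difference of the means. The make-up of that sum differed as well. Camk2a took 19.9% ± 0.900 (SD, n = 2) of it in controls and 62.5% ± 1.07 (SD, n = 2) in cKO. Camk2b took 57.0% ± 1.30 in controls and 30.5% ± 0.998 in cKO (SD, n = 2 each). For Camk2g the share was 22.4% ± 0.296 in controls and 6.43% ± 0.00601 in cKO, and for Camk2d it was 0.710% ± 0.103 and 0.627% ± 0.0774 (SD, n = 2 each). The Camk2d shares overlapped between the groups, at 0.637% and 0.782% in controls and 0.572% and 0.682% in cKO. Expressed as a ratio of FPKM, Camk2a over Camk2b was 0.332 and 0.365 in the controls and 2.12 and 1.98 in cKO, so the order of the pair was opposite in the 2 groups. With counts divided by the longest annotated transcript in place of the authors' gene length, Camk2a took 15.1% in controls and 53.6% in cKO, and Camk2d took 1.46% in each.

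**Figure D2:**
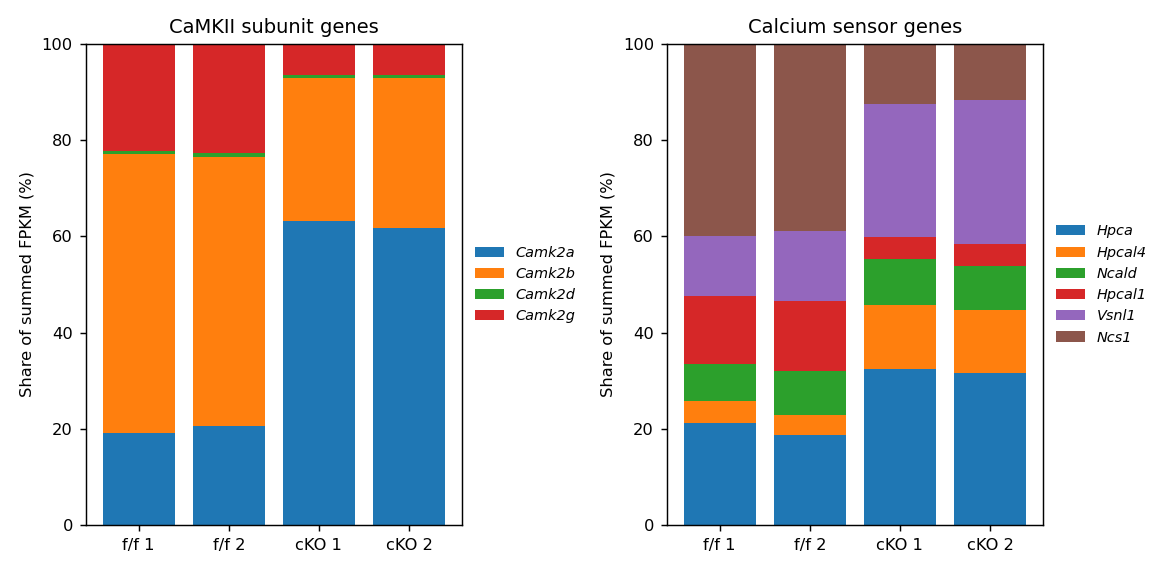
Stacked bars give, for each library, the share of summed FPKM in percent that each gene holds, for the 4 CaMKII subunit genes on the left and for 6 calcium sensor genes on the right. Camk2a takes 19.9% of the CaMKII sum in controls and 62.5% in cKO, and Ncs1 takes 39.4% and 12.1% of the sensor sum.

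Camk4 encodes CaMKIV, a kinase that acts in the nucleus on the transcription factor CREB. It is listed on chromosome 18 from 33067984 to 33324281 (ENSMUSG00000038128) and had 2.89 and 3.83 FPKM in controls, from 165 and 203 counts, and 10.3 and 12.1 FPKM in cKO, from 582 and 656 counts. Its control libraries differed 1.32-fold from each other, which is less than the gap of 2.56-fold between the groups in CPM, and the log2FC was 1.65 (SE 0.15). Camkv encodes a CaM kinase-like protein of vesicles that binds calmodulin and lacks kinase activity, and is listed on chromosome 9 from 107812873 to 107826890 (ENSMUSG00000032936). It had 143 and 129 FPKM in controls, from 9438 and 7872 counts, and 263 and 255 FPKM in cKO, from 17121 and 16031 counts, log2FC 0.85 (SE 0.08). Camkv FPKM was 4.34 and 4.03 times that of Camk2a in the controls and 0.902 and 0.936 times in cKO.

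Nrgn, which encodes neurogranin, a small postsynaptic protein that holds calmodulin through an IQ motif while calcium is low, was the most abundant of the 10 genes in cKO. It is listed on chromosome 9 from 37455788 to 37464200 (ENSMUSG00000053310). It had 163 and 138 FPKM in controls, from 4141 and 3263 counts, and 1406 and 1339 FPKM in cKO, from 35409 and 32451 counts, log2FC 3.11 (SE 0.09). By FPKM it was number 241 and 315 of all genes in controls and number 12 and 13 in cKO. Mean FPKM was 9.13-fold higher in cKO for Nrgn and 8.69-fold for Camk2a, and the ratio of Nrgn to Camk2a stayed within the spread of the replicates, at 4.93 and 4.33 in controls and 4.83 and 4.91 in cKO. Against Gap43, whose product binds calmodulin through a like motif in growing axons, the ratio of Nrgn was 0.279 and 0.199 in controls and 1.53 and 1.44 in cKO.

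The 3 neuronal calcium sensor genes were all higher in cKO, to different degrees. Hpcal4, which encodes a visinin-like sensor, is listed on chromosome 4 from 123077020 to 123088494 (ENSMUSG00000046093) and had the largest log2FC of the 10 genes, 3.15 (SE 0.09). It had 8.38 and 8.60 FPKM in controls, from 784 and 747 counts, and 79.4 and 80.0 FPKM in cKO, from 7345 and 7122 counts. Replicates of this gene were nearly alike, and the groups were 8.65-fold apart at their nearest libraries in CPM.

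Hpca encodes hippocalcin, a sensor that is abundant in hippocampal and cortical pyramidal neurons, and is listed on chromosome 4 from 129005363 to 129015829 (ENSMUSG00000028785). It had 38.0 and 40.1 FPKM in controls, from 1948 and 1907 counts, and 193 and 194 FPKM in cKO, from 9778 and 9459 counts, log2FC 2.23 (SE 0.09). Hpca FPKM was 4.54 and 4.66 times that of Hpcal4 in controls and 2.43 times in each cKO library.

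Ncald, which encodes neurocalcin delta, is listed on chromosome 15 from 37366419 to 37792814 (ENSMUSG00000051359) and was the least even between the control replicates. It had 13.6 and 19.9 FPKM in controls, from 2046 and 2778 counts, and 56.5 and 55.9 FPKM in cKO, from 8407 and 7997 counts. The control libraries differed 1.46-fold from each other, and the log2FC of 1.66 (SE 0.14) was 1.41 without control replicate 1 and 1.95 without control replicate 2.

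Ordered by mean FPKM in controls, the genes ran Nrgn, Camkv, Camk2b, Hpca, Camk2g, Camk2a, Ncald, Hpcal4, Camk4 and Camk2d. Of neighbours in that order, Nrgn and Camkv overlapped in their libraries, as did Hpca and Camk2g. In cKO the order was Nrgn, Camk2a, Camkv, Hpca, Camk2b, Hpcal4, Ncald, Camk2g, Camk4 and Camk2d, and no neighbours overlapped. The order rests on the gene lengths behind FPKM. With CPM per kilobase of the longest GENCODE M21 transcript, an alternative chosen after seeing the data, Camk2b (226 and 200) came before Camkv (169 and 153) and Nrgn (167 and 143) in controls, Camk2g came before Hpca with overlapping libraries, and Camk2d (4.57 and 5.14) before Camk4 (3.56 and 4.75), which overlapped too. In cKO, Nrgn and Camk2a stayed the highest, Hpca, Camk2b and Camkv followed with overlapping libraries, and Ncald came before Hpcal4. Camk2a was behind Camk2g in controls and next after Nrgn in cKO on both scales.

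**Figure D3:**
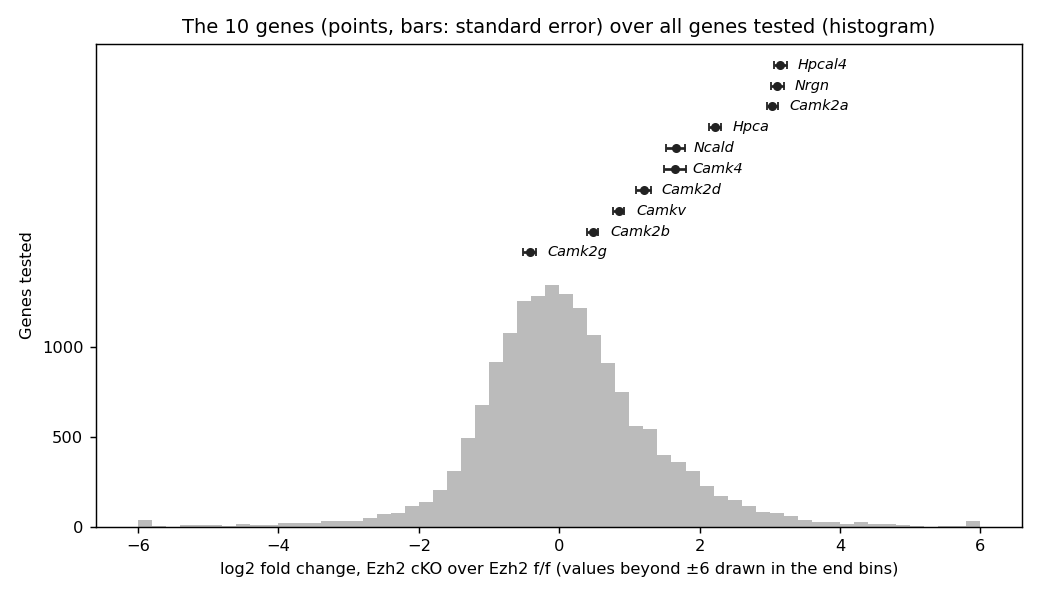
The histogram counts all 16793 genes tested by log2FC (cKO over controls), and points above it, placed by gene with no meaning to their height, give the 10 genes with their standard errors. Hpcal4, Nrgn and Camk2a lie together at 3.04 to 3.15, and Camk2g is the only one below 0.

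Promoter sequences of RefSeq, on the build GRCm38.p6, run from 250 bases before to 50 bases after a start site. Promoters of Camk2a and Camk4 were left out of the search, so whether these genes have an entry is not stated here. Camk2g and Ncald had no entry in the table used. The other 6 of the 10 genes had one, with 8 start sites in all. Each was searched on both strands for the cyclic AMP response element TGACGTCA and its shorter core TGACG, for the TATA box TATAAA, for the GC box GGGCGG and for TTCAGCACC, the left part of the RE1 element. The core TGACG is part of the full element, so a match of the latter counts for both. At least 1 GC box was present for all 6 genes and at 7 of the 8 start sites, while 35.7% of the 32851 promoters in the table held one. None of the 8 held the response element (1.79% of all promoters), its core (20.8%), the TATA box (13.6%) or the RE1 part (0.371%), which says only that these letters are not in these windows. The promoters of 4 genes are shown, those of Nrgn and Hpcal4, which had the larger log2FC, and those of Camk2b and Camkv, which had the smaller ones among the higher genes. Capitals mark GC boxes on either strand, and runs of capitals longer than 6 letters are boxes that overlap or abut. The Nrgn window (chr9:37552696-37552995, minus strand) had 17 CpG and 59.3% GC, Hpcal4 (chr4:123183254-123183553, plus strand) 22 and 61.7%, Camk2b (chr11:6065699-6065998, minus strand) 51 and 77.3%, and Camkv (chr9:107935670-107935969, plus strand) 25 and 68.3%. The medians over all promoters were 7 CpG and 52.7% GC.
Nrgn: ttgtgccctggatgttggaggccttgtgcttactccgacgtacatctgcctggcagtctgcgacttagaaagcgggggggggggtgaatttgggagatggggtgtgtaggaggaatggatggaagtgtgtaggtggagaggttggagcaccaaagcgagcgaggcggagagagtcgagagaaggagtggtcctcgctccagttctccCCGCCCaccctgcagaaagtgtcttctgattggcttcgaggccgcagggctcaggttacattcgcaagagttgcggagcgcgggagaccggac
Hpcal4: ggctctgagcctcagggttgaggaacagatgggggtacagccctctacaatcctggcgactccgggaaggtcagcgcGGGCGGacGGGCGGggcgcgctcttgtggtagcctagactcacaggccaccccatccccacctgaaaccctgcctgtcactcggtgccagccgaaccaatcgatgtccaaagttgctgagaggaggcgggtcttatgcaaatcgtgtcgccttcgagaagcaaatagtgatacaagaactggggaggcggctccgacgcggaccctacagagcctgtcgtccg
Camk2b: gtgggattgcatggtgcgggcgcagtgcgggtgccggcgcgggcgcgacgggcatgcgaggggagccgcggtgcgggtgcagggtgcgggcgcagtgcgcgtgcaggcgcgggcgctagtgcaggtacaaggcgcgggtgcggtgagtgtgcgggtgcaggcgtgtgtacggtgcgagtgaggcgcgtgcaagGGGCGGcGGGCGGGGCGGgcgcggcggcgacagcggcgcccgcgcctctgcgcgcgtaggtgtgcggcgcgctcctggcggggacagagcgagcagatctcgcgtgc
Camkv: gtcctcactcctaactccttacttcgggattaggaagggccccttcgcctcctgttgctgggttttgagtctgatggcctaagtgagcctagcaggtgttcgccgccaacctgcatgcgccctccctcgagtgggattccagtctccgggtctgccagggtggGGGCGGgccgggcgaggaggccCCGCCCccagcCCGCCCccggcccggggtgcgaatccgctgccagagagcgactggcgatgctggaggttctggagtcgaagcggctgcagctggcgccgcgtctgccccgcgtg

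Nrgn had 1 GC box in this window, which begins 43 bases before the start site, and Hpcal4 had 2, which begin 173 and 165 bases before it. Camk2b had 3, of which the last begins 45 bases before the start site, and Camkv had 3, of which the last begins 54 bases before it. Genes with large and with small log2FC thus had a GC box in common. Of the 4 printed promoters, the 2 with the most CpG belonged to the genes with the smaller changes. That contrast depends on which promoters were printed. Among the entries not printed, Camk2d (log2FC 1.21) had 31 CpG, and the 3 start sites of Hpca (log2FC 2.23) had 8, 27 and 4. No test was made on so few sequences.

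Within their longest annotated transcripts, the 10 genes shared little sequence with other genes. Of all windows of 50 bases in the longest GENCODE M21 transcript of each gene, between 0% and 0.386% also occurred in a transcript of another gene for 9 of them, and 3.56% for Ncald, whose windows were shared with Gm49397, a gene without an entry in the deposited table. No CaMKII gene therefore shared more than 0.386% of such windows with any other gene. In the deposited coordinates 6 of the 10 genes overlap another gene, and those other genes held at most 0.362% of the member's own counts (Gm43011, inside Camk2d). Whether the counting used strand is not given in the sources used here.

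Beyond the rule, the gene ontology terms in the deposited table join 7 of the 10 genes under calmodulin binding, a term of 1.19% of tested genes with any term, and 6 under calmodulin-dependent protein kinase activity. Calcium ion binding is listed for 3. On the chromosomes, Hpca and Hpcal4 share chromosome 4, Nrgn and Camkv chromosome 9, and Camk2a and Camk4 chromosome 18.

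The remaining calcium signalling genes were taken from a list of 46 genes in 11 roles, none of them among the 10. All 46 had enough counts to be tested. By edgeR's adjusted p, 31 passed as higher in cKO, 6 passed as lower and 9 did not pass, beside 34.7% higher and 33.6% lower among all genes tested. The median log2FC of the list was 0.87 and that of all genes tested was 0.015. The list was chosen with earlier results of these data known, so these counts are a description.

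Calm2 and Calm3, which encode calmodulin, rose. Calm2 had 1032 and 997 CPM in controls and 2007 and 2031 CPM in cKO, log2FC 0.99 (SE 0.07, adjusted p = 2.09e-08 from edgeR). Calm3 had 1661 and 1866 CPM in controls and 4136 and 3779 CPM in cKO, log2FC 1.17 (SE 0.07, adjusted p = 1.05e-08 from edgeR). The groups did not overlap in either gene.

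Both genes for CaMKII inhibitor proteins rose as well. Camk2n1 went from 125 and 143 CPM to 544 and 554 CPM, log2FC 2.04 (SE 0.09, adjusted p = 4.97e-10 from edgeR), and Camk2n2 had one of 0.31 (adjusted p = 0.0108 from edgeR). The FPKM of Camk2a over that of Camk2n1 was 1.20 and 1.03 in controls and 2.34 and 2.11 in cKO. Of the phosphatase genes that act on CaM kinases, Ppm1e rose by 1.69 and Ppm1f by 0.92 on the log2 scale.

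Among the 6 genes of the CaMK kinases and CaMKI, 4 rose and 1 fell. Camkk2, an upstream kinase of CaMKI and CaMKIV, went from 53.8 and 52.3 CPM to 247 and 241 CPM, 4.59-fold higher in the mean (adjusted p = 2.75e-10 from edgeR). Its relative Camkk1 did not pass the test (log2FC 0.10, adjusted p = 0.364), and Camk1g fell by 0.74 on the log2 scale (log2FC -0.74, adjusted p = 8.49e-06 from edgeR).

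Of 7 genes of calcineurin, the phosphatase that calmodulin activates, and of its regulators, 5 rose and 1 fell. Ppp3r1, the regulatory subunit, had the largest log2FC, 1.18, and Rcan1, an inhibitor, the lowest, -0.35. The other IQ motif genes all rose, with log2FC of 0.45 for Gap43, 2.28 for Pcp4 and 1.91 for Pcp4l1, where Pcp4 had at most 2.02 CPM in any library.

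Of 7 other neuronal calcium sensor genes, 4 rose and 1 fell. Vsnl1, which encodes the sensor VILIP-1, went from 45.0 and 62.6 CPM to 317 and 344 CPM, log2FC 2.62 (SE 0.13, adjusted p = 1.15e-09 from edgeR), and Kcnip1, whose product binds Kv4 potassium channels, had the lowest, -0.53. Ncs1 and Hpcal1 did not pass the test, with log2FC of -0.17 (adjusted p = 0.113) and -0.09 (adjusted p = 0.477) from edgeR. Set beside Hpca, Hpcal4 and Ncald, Ncs1 held 39.4% ± 0.627 of the summed FPKM of the 6 sensors in controls and 12.1% ± 0.474 in cKO (SD, n = 2 each). Hpca held 21.2% and 18.7% in controls and 32.5% and 31.6% in cKO, and Vsnl1 12.5% and 14.4% in controls and 27.7% and 29.8% in cKO. The FPKM share of Ncald overlapped between the groups, at 7.58% and 9.30% against 9.50% and 9.10%. As a share of counts, with no scaling to length, Ncald held 18.7% in controls and 21.9% in cKO, Ncs1 47.3% and 15.4%, and Vsnl1 6.78% and 15.5%.

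The calmodulin-like genes Cabp1 and Caln1 rose, with log2FC of 0.86 and 0.93, and Cabp7 was at -0.07 (adjusted p = 0.749). Of the calcium buffers, Calb1 rose from 14.4 and 15.1 CPM to 52.6 and 62.9 CPM (log2FC 1.97, adjusted p = 7.50e-09 from edgeR). Calb2 had 47.7 and 136 CPM in controls and 70.4 and 64.9 CPM in cKO, so its groups overlapped, and Pvalb was below 1 CPM in every library. Of 6 enzymes that calmodulin activates, 5 rose, most of all the adenylyl cyclase gene Adcy1 (log2FC 1.30), and the phosphodiesterase gene Pde1c had the lowest value, -0.44, without passing the test (adjusted p = 0.141 from edgeR).

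Of CREB and its coactivators, on which CaM kinases and calcineurin converge in the nucleus, 3 of 4 genes fell. Crtc2 fell from 116 and 114 CPM to 37.8 and 36.2 CPM (log2FC -1.63, adjusted p = 4.80e-09 from edgeR). Crtc1 and Crebbp, named after their values were seen, were at -1.18 and -1.24 and passed the test too, while Creb1 itself did not (log2FC 0.14, adjusted p = 0.351 from edgeR).

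**Figure D4:**
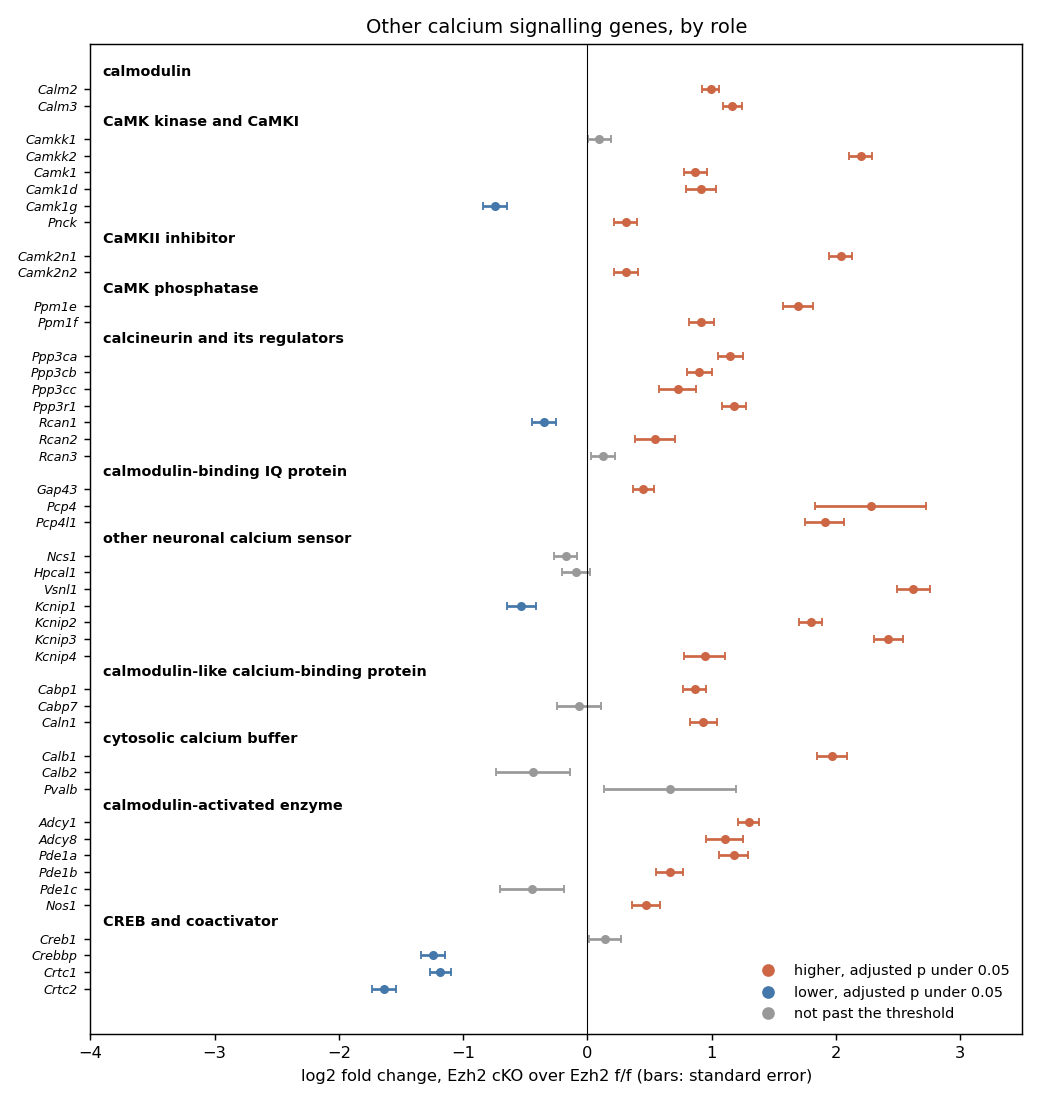
Points give the log2FC (cKO over controls) of the other calcium signalling genes by role, with standard errors, coloured by whether they passed an adjusted p of 0.05 in edgeR. Of the 6 lower genes, 3 are the CREB coactivator genes at the foot of the plot.

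Lastly, the genes outside the 10 whose pattern was most like that of Camk2a were sought among 9960 genes with a mean of at least 10 CPM over the 4 libraries, by the Euclidean distance between log2 CPM centred on each gene's mean. The nearest of them were Necab3 (distance 0.0865), Thy1 (0.112), Ankrd34a (0.122), Sv2b (0.137) and Akr1e1 (0.150). Of the 10 genes, Hpcal4 (0.147) lay nearer than Akr1e1 and Nrgn (0.155) just beyond it, while Camk2g was farthest at 3.46. Necab3 belongs to a family of EF-hand proteins, Thy1 encodes a surface protein of neurons and Sv2b a synaptic vesicle protein. Necab3, Ankrd34a and Akr1e1 passed the 10 CPM minimum only through cKO, with means of 4.84, 8.49 and 2.60 CPM in controls. With 4 libraries in 2 groups the distance is set mostly by the same contrast on which Camk2a was chosen, so these names are a description.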

How the data were processed

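RNA-seq libraries of bead-isolated cortical astrocytes from P5 Ezh2 f/f and Ezh2 cKO mice (n = 2 each) were analysed. The authors deposited raw counts per gene and, in a second table, FPKM. Their processing notes name Bowtie2 2.2.3, TopHat2 2.0.12, HTSeq 0.6.0 and mm9, without roles. The annotation and its release are not given in the sources used here. Deposited coordinates equal those of GENCODE M21 (GRCm38) for 581 of 28799 matched genes, so they are printed as deposited with their build unsettled. Count over FPKM gave a single length per gene (within 0.1% over the libraries for 100% of 13416 genes with 20 or more counts in each), so FPKM are the same counts scaled to length and total. The deposited tables also hold the authors' own comparison (mean, fold change, p-values, calls), which was not used. All 8 sample columns were used and 0 were left out.

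Genes were filtered with filterByExpr, scaled by TMM and fitted with the quasi-likelihood test of edgeR 4.0.16 (R 4.3.3), with group as the only term and Benjamini-Hochberg adjustment over 16793 genes. CPM use the TMM-adjusted library sizes, except for the limit of 3 counts, which uses the total counts. DESeq2 1.42.0 and limma 3.58.1 served as alternatives. Each test was run on simulated data with few changed genes and the same dispersion for all genes, a simpler setting than these data. Tables were handled with Python 3.11.15, pandas 2.3.3 and numpy 2.4.6, and plots drawn with matplotlib 3.10.9. The 10 genes and all lists were chosen with earlier results of these data known. Named are all 10 genes, Ezh2, list genes (all in roles of 3 or fewer, otherwise the highest and the lowest log2 fold change) and the 5 genes outside the 10 that lay nearest to Camk2a. Others were chosen after their values were seen. The values of 1 list gene are not reported here, and the counts over the list include it.

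Within a group, libraries varied beyond counting error, with chi-square divided by degrees of freedom at 8.92 for controls and 5.68 for cKO.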

Additional observations from a re-analysis of the deposited data

How the results depend on the processing

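The direction of all 10 genes and of Ezh2 held under each of 11 alternatives (DESeq2, its size factors in edgeR, no filter, a mean of at least 50 counts, limma on log2(FPKM + 1) and on log2(FPKM + 0.1), the replicate block, and each library left out). The log2 fold change of Camk2a lay between 2.97 and 3.12 over them, that of Camk2g between -0.49 and -0.33, and that of Camk2b between 0.38 and 0.56. Of the 10 genes Camk2d moved most, to 0.83 on the log2(FPKM + 1) scale, which understates changes of low genes. The numbers of genes called stayed within 1.5 times those reported. Over the alternatives the calcium signalling list had 27 to 32 higher and 5 to 8 lower genes. Replicate numbers are shared by the groups, but nothing in the labels pairs them, and the deviations of same-numbered libraries correlated with r = 0.130 across genes. With the replicate block 5795 genes were higher and 5599 lower, and 31 and 7 of the list. As a share of counts with no length scaling, Camk2a made up 17.9% of CaMKII in controls and 58.3% in cKO. Per longest GENCODE M21 transcript, an alternative added after the data were seen, it made up 15.1% and 53.6%. With 2 libraries a group, values of 1 gene cannot reach a permutation p under 0.05, and genes such as Pvalb, near the detection limit, are known only roughly.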

Other observations

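Beyond the genes above, the gene ontology terms of the deposited table were read for wider groups, chosen after values had been seen and without a test of the group. Of the 169 tested genes under calmodulin binding that are not among the 10, 86 passed edgeR's adjusted p of 0.05 as higher and 40 as lower, with a median log2 fold change of 0.48. Under calcium ion binding, 268 of 579 such genes were higher and 146 lower, with a median of 0.37. Under protein serine/threonine kinase activity the balance was opposite, with 80 of 330 higher and 144 lower and a median of -0.22. The 14 other genes under calmodulin-dependent protein kinase activity had 8 higher and 5 lower, with a median of 0.40. Among all genes tested, 34.7% were higher and 33.6% lower, with a median of 0.015.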
